A study of Mus musculus with 4 samples.

Results

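Pitx1 chromatin immunoprecipitation peaks around 3 genes for secreted Wnt pathway proteins, Wnt5a, Wnt11 and Rspo2, were examined in embryonic mouse hindlimb buds. Members were the peaks whose midpoint lay in 1 of 3 windows on genome build mm9. The Wnt5a window ran from 28800000 to 29900000 on chromosome 14, with the gene at about 29.3 Mb. The Wnt11 window ran from 105700000 to 106500000 on chromosome 7, with Wnt11 at about 105.98 Mb and its neighbour Uvrag in the same window. The Rspo2 window ran from 42300000 to 43600000 on chromosome 15, with the gene at about 42.9 Mb. Together the windows held 58 of the 14753 peaks of replicate 1 and 79 of the 25027 peaks of replicate 2. Peaks of the 2 replicates that overlapped by at least 1 bp were joined into a replicated region, and 36 of the 10274 replicated regions lay in the windows.

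All samples were wild-type ICR embryos at stage E11.5 (embryonic day), with no treatment and no second genotype or stage. Chromatin was bound with a Pitx1 antibody in 2 libraries (replicates 1 and 2), and 2 further libraries were input chromatin, for which no list of peaks was used here. Whether the 2 ChIP libraries came from different embryos is not stated in the labels, and what differs between them can be technical. The windows were selected on the peak positions of these same libraries, so counts inside them are a description and carry no test. No read counts were used, so the sequencing depth behind the peaks is unknown, and RNA was not measured. Gene positions are the approximate ones above, because the gene annotation used here was of build GRCm38. Whether a region lies in an exon, an intron or between genes was therefore not determined. The positions of Wnt5a and Rspo2 are known only to 1 decimal of a Mb, and that of Wnt11 to 2. For Wnt5a and Rspo2 this rounding is as large as the shortest distances given below. Which of their regions is nearest, and how many lie within 50 kb, hold for the rounded positions only.

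Wnt proteins are secreted, lipid-modified glycoproteins that bind Frizzled receptors together with co-receptors. Wnt5a and Wnt11 are mainly known for signalling that does not use beta-catenin, which in the case of Wnt5a runs through the receptor Ror2 and orients cells during outgrowth of the limb. Rspo2 is an R-spondin and not a Wnt. It binds Lgr receptors and the membrane ubiquitin ligases Znrf3 and Rnf43, and so keeps Frizzled receptors at the cell surface, and mice without it have malformed distal limbs, with the hindlimbs more affected. Pitx1, the immunoprecipitated factor, is a homeodomain protein made in the hindlimb and not in the forelimb, and proteins of its class bind the sequence TAATCC. In the GRCm38 gene order, Wnt5a lies between Erc2 and Cacna2d3, Wnt11 between Thap12 and Uvrag, and Rspo2 between Angpt1 and Eif3e.

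Promoter sequence was at hand for Wnt11 and not for Wnt5a or Rspo2. RefSeq (GRCm38.p6) gives Wnt11 gene starts on the plus strand at 2 places, and the 250 bases before each are shown. They cover chr7:98834862-98835111 and chr7:98838595-98838844 in GRCm38.p6, which are not to be set beside the mm9 positions of the peaks. Capitals mark a match to TAATCC on either strand. Here the match is on the minus strand, so the printed plus strand reads GGATTA.
Wnt11 first start: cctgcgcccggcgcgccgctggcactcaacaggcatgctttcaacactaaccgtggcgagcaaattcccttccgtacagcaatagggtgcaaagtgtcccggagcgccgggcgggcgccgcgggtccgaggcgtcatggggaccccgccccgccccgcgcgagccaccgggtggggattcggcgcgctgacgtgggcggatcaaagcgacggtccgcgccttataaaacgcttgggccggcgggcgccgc
Wnt11 second start: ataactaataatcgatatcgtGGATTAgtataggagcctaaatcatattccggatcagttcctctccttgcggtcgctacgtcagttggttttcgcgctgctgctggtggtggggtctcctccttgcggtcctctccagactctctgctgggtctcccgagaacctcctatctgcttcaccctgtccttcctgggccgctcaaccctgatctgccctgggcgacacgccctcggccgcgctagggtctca
The sequence before the second start held 1 match, whose first base lies 229 bases before that start, and the sequence before the first start held 0. A stretch of the same length before the start of the neighbour Uvrag, not shown, also held 0. Of all 32851 RefSeq promoter stretches of this length, 6.25% held a match. The first stretch had a GC content of 70.8% and the second of 56.8%. These matches are letters in a window and not measured sites.

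Peaks were dense around Wnt5a and Wnt11, while the Rspo2 window lay near the autosomal rate. The Wnt5a window held 24 peaks of replicate 1, 43 of replicate 2 and 16 replicated regions. The Wnt11 window held 19, 23 and 14, and the Rspo2 window held 15, 13 and 6. Over the 19 autosomes (2468 Mb up to the last peak of each), the rates were 5.90 peaks per Mb in replicate 1, 10.02 in replicate 2 and 4.11 replicated regions per Mb. Replicated regions reached 14.5 per Mb in the Wnt5a window (95% exact Poisson interval 8.31 to 23.6), 3.54 times the autosomal rate. In the Wnt11 window they reached 17.5 per Mb (9.57 to 29.4), 4.26 times that rate. The Rspo2 window held 4.62 per Mb (1.69 to 10.05), 1.12 times the autosomal rate. These intervals hold counting error alone, clustered peaks vary more than that, and with windows selected on the peaks they test nothing against the autosomes.

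**Figure D1:**
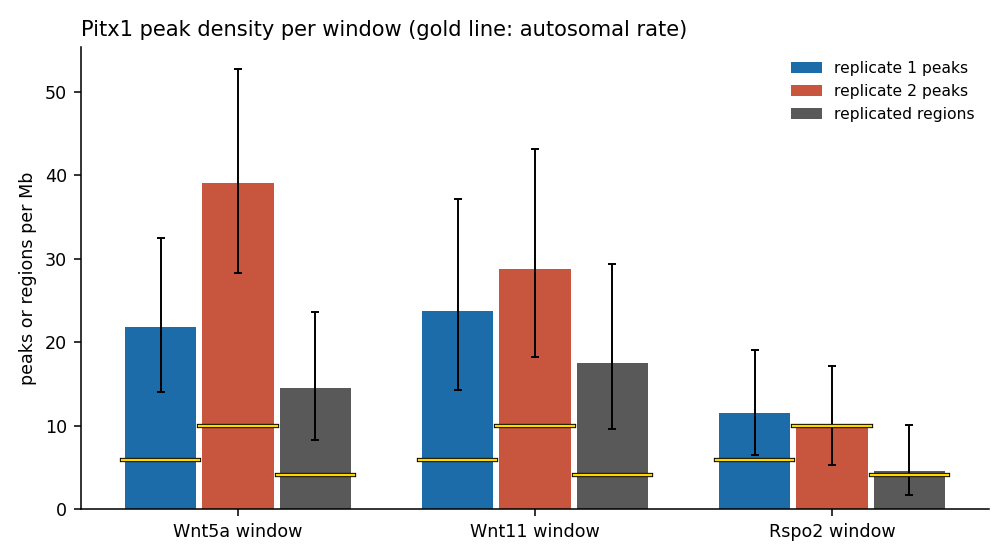
Pitx1 peaks of each replicate and replicated regions per Mb (y axis) in each window. Bars are densities, whiskers are 95% exact Poisson intervals for counting error, and gold lines mark the autosomal rate of the same list. Densities in the Wnt5a and Wnt11 windows are above the gold line in both replicates, and those of the Rspo2 window are at or near it in replicate 2 (10 per Mb) and among replicated regions.

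The ratio for the Rspo2 window was not the same in the 2 libraries. In replicate 1 alone its density was 1.96 times the autosomal rate (interval 1.09 to 3.23), and in replicate 2 alone 0.998 times (0.532 to 1.71). The difference between the libraries was not tested. For Wnt5a the corresponding ratios were 3.70 and 3.90, and for Wnt11 they were 4.03 and 2.87. The autosomes were also cut into consecutive tiles of each window's length. Of 2235 tiles of 1.1 Mb, 3.36% held at least the 16 replicated regions of the Wnt5a window, and the median tile held 3. Of 3075 tiles of 0.8 Mb, 2.11% held at least the 14 regions of the Wnt11 window, with a median of 2. Of 1889 tiles of 1.3 Mb, 37.6% held at least the 6 regions of the Rspo2 window, with a median of 4. By replicate 1 peaks the shares of such tiles were 1.79%, 1.76% and 13.3% for Wnt5a, Wnt11 and Rspo2. By replicate 2 peaks they were 0.761%, 4.16% and 44.0%. Tiles at least as full as the Wnt5a and Wnt11 windows therefore exist elsewhere, and the fullest tiles of those lengths held 37 and 30 replicated regions.

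**Figure D2:**
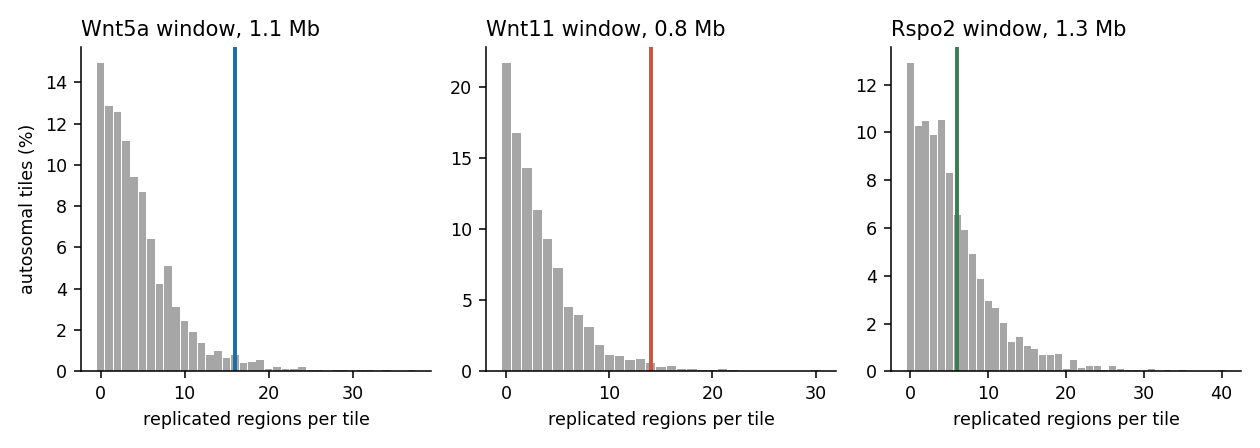
Number of replicated Pitx1 regions (x axis) in autosomal tiles of the length of each window, as a percentage of tiles (y axis). The coloured line marks the window itself: 16 regions for Wnt5a, 14 for Wnt11 and 6 for Rspo2.

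The 16 replicated regions of the Wnt5a window formed 2 groups and 1 lone region, when neighbours over 100 kb apart were put in different groups, a distance chosen after the positions were seen. The first group, of 6 regions, spanned 139 kb from 29184441 to 29323466 and contains the approximate position of Wnt5a. The second group, of 9 regions, spanned 198 kb from 29588324 to 29786511, about 0.29 to 0.49 Mb on the higher-coordinate side of the gene. No replicated region lay in the 266 kb between midpoints across the groups. The far group held the strongest regions of the window and also some of the weakest. Its regions had median score percentiles of 76.6 (replicate 1) and 74.6 (replicate 2), whereas those at the gene had 44.8 and 64.1. A score is the peak caller's own value for a peak, and a percentile ranks it within its own list, with 100 for the strongest.

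The strongest region of the Wnt5a window, from 29588324 to 29589829, scored 407.8 in replicate 1 (rank 378) and 671.4 in replicate 2 (rank 462). The last region of the window, from 29785574 to 29786511, scored 329.6 and 684.5 (ranks 653 and 446). The third by summed rank, from 29611053 to 29612062, scored 287.9 and 379.9 (ranks 864 and 1502). All 3 belong to the far group, and each was in the best 10% of both lists. The third is also the first of the window's only run of 3 regions under 10 kb apart. The run continues with a region from 29614697 to 29615757, scored 146.4 and 78.9, and ends with one from 29622449 to 29623206, scored 132.4 and 149.1. The middle region of this run was relatively weaker in replicate 2, at percentile 43.1 against 80.1 in replicate 1. The other regions of the far group lay between percentiles 17.2 and 70.1 in replicate 1 and between 28.2 and 78.6 in replicate 2.

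Within 50 kb of the approximate position of Wnt5a there were 4 replicated regions, 5 peaks of replicate 1 and 11 of replicate 2. The strongest of these regions, from 29322433 to 29323466, scored 104.9 in replicate 1 and 187.9 in replicate 2 (percentiles 66.0 and 81.7). The nearest to the position, from 29314244 to 29315182, scored 72.8 and 122.3. Neither was in the best 10% of either list. On the lower-coordinate side, 2 regions stood only 6 bases apart. The first, from 29282616 to 29283346, scored 55.9 and 132.1, and the second, from 29283353 to 29284078, scored 80.3 and 107.3. In both libraries the caller separated them, and counted as 1 stretch they would leave 15 regions in the window. The remaining 7 replicate 2 peaks within 50 kb were called in that library only, and the highest of them scored 93.2. The window's first region, from 28855914 to 28856610, lay 329 kb by midpoint from the next one and was weak in both libraries (scores 52.9 and 52.9).

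**Figure D3:**
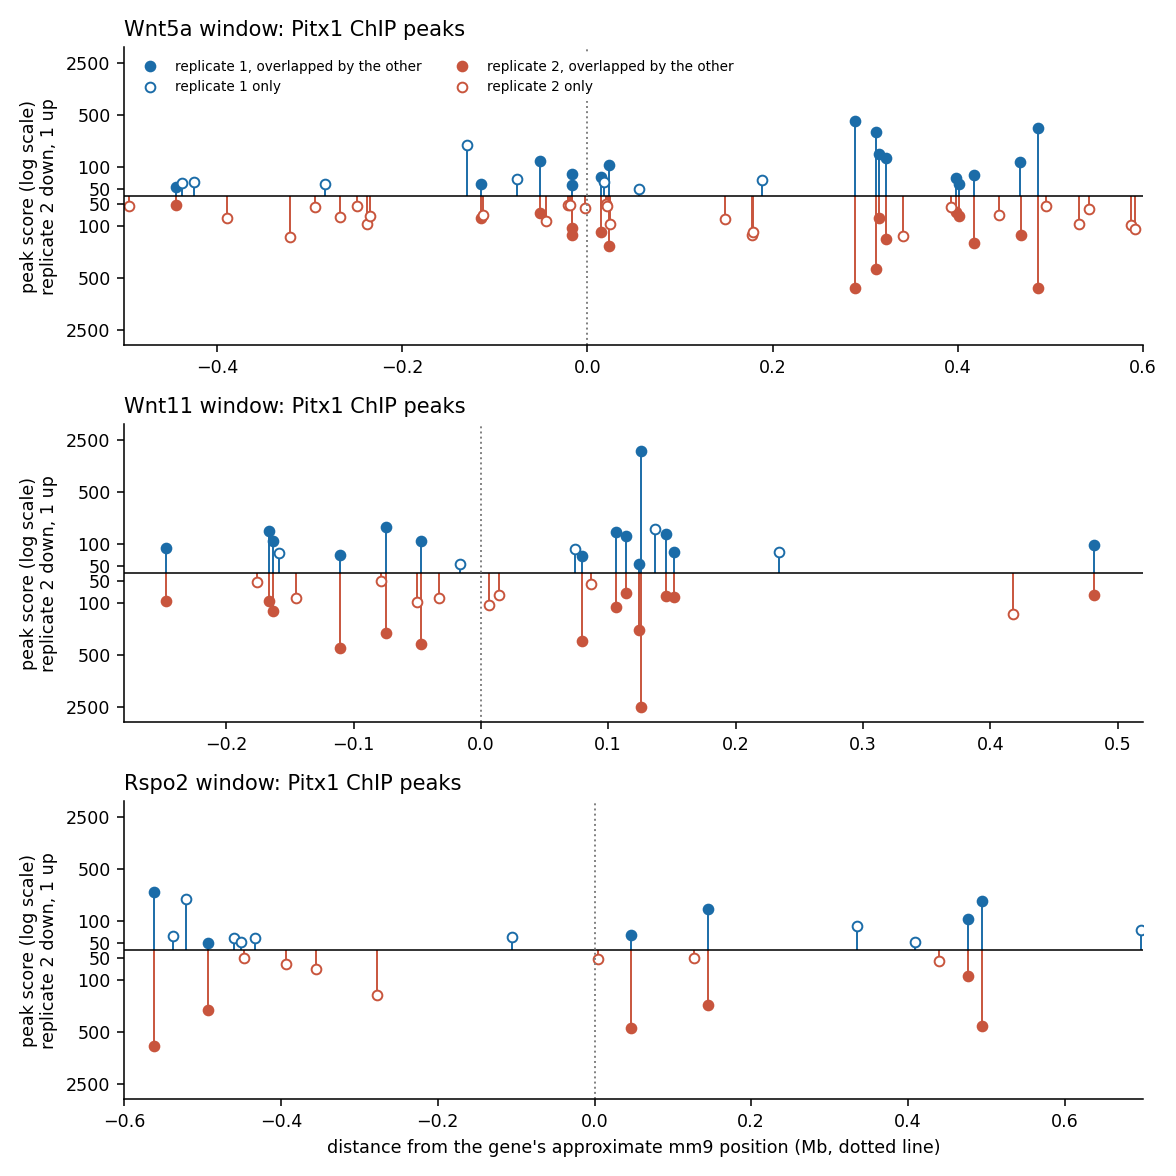
Pitx1 ChIP peaks of the 3 windows by distance from the gene's approximate mm9 position (x axis, Mb) and score (y axis, log scale, replicate 1 upward and replicate 2 downward). Filled points are peaks that overlap a peak of the other replicate and open points are peaks of 1 replicate only. Strong peaks of the Wnt5a window lie near 0.29 and 0.49 Mb, the Wnt11 window has its tallest peak at 0.126 Mb, and the Rspo2 window has few filled points.

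Around Wnt11 the replicated regions lay on both sides of the gene and not next to it. A group of 6 spanned 201 kb on the lower-coordinate side, from 105732524 to 105933585. A group of 7 spanned 73.0 kb on the higher-coordinate side, where Uvrag, a protein of autophagy and endosome traffic, follows Wnt11 in the gene order. The midpoints across the gap were 127 kb apart. The nearest region to the approximate position of Wnt11 lay at -0.0469 Mb, from 105932544 to 105933585, with scores of 108.3 and 351.8. Closer peaks were found in 1 library only. In replicate 2 they were at 105946527 to 105947115 (score 86.1), 105986283 to 105986706 (score 107.4) and 105994276 to 105994606 (score 78.6). Replicate 1 had 1 such peak, from 105963475 to 105964448 (score 53.5).

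The strongest region of the 3 windows stood in the group above Wnt11, from 106104581 to 106107325. It scored 1749.8 in replicate 1 and 2501 in replicate 2, rank 3 of 14753 and rank 2 of 25027. It was 2745 bp wide in replicate 1 and 1676 bp in replicate 2, the widest region of the windows, and its midpoints differed by 295.5 bp between the libraries. It lay about 0.126 Mb from the approximate position of Wnt11. A separate region ended 37 bases before it, from 106103396 to 106104543, and was among the weak peaks of replicate 1 (score 52.7, percentile 6.42) and the stronger ones of replicate 2 (score 228.0, percentile 86.4). The other 5 regions of this group lay between percentiles 36.6 and 78.9 in replicate 1 and between 37.2 and 92.0 in replicate 2. The next region of the whole window by summed rank was on the other side of the gene, from 105905196 to 105905967, with scores of 167.8 and 256.5 (ranks 2341 and 2851). In replicate 2 alone, 3 other regions of the window ranked above it, the best of them at rank 1330.

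Among the 5 best regions of the Wnt11 window by summed rank, 2 ranked much higher in replicate 2. They were below the median score of the replicate 1 list and in the best 10% of the replicate 2 list. The autosomal share of such regions was not computed. A gap of over 50 percentile points in favour of replicate 2 was seen in 8.55% of autosomal replicated regions. The region from 105868427 to 105870750 scored 70.7 in replicate 1 (percentile 38.5) and 406.4 in replicate 2 (percentile 94.7). With 2324 bp in replicate 1 it was the second widest of the windows. The region from 106059265 to 106060105 scored 69.3 and 319.9 (percentiles 36.6 and 92.0). The first region of the window, from 105732524 to 105733215, scored 87.0 and 94.8, and the last, from 106460995 to 106461882, scored 94.8 and 78.6. That last region lay 330 kb from its lower neighbour by midpoint and was alone.

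The Rspo2 window held 3 pairs of regions by the same 100 kb limit, which the middle pair, 98.6 kb apart by midpoint, only just met. Angpt1, a ligand of the receptor Tie2, precedes Rspo2 in the gene order. On that side, about 0.5 Mb below the approximate position of Rspo2, lay the lowest pair. Its first member, from 42337928 to 42338812, scored 244.4 in replicate 1 and 771.5 in replicate 2 (ranks 1207 and 329), and was the strongest of the window. Its second, from 42406052 to 42406852, scored 51.0 and 253.3 (percentiles 2.47 and 88.4). The replicates placed the first member high in both lists, but the second near the bottom of one and high in the other.

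No replicated region followed for 540 kb by midpoint. The next, from 42946116 to 42946919, was the nearest to the approximate position of Rspo2, 0.0465 Mb above it, and scored 64.2 in replicate 1 (percentile 29.1) and 445.3 in replicate 2 (percentile 95.5). The region from 43044769 to 43045514 scored 143.9 and 216.8 (percentiles 79.4 and 85.3). The highest pair, 18.0 kb apart by midpoint, was on the side where Eif3e, a subunit of a translation initiation factor, follows Rspo2. Its members scored 106.1 and 87.3 (from 43376652 to 43377354) and 181.4 and 414.1 (from 43394532 to 43395391). Beyond the last region, the next replicated region on chromosome 15 was 2343 kb away by midpoint. Of the 6 regions, 1 was in the best 10% of the replicate 1 list and 3 in that of replicate 2. Among autosomal replicated regions these shares were 14.4% and 23.1%, and with 6 regions the counts are a description only.

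Spacing differed in the same way between the windows. Neighbouring midpoints were a median of 22.5 kb apart in the Wnt5a window, 26.2 kb in the Wnt11 window and 98.6 kb in the Rspo2 window, against 88.7 kb over the autosomes. In all, 28 of the 36 regions (77.8%) had another replicated region within 50 kb, where the autosomal share was 56.7%. By window they were 14 of 16, 12 of 14 and 2 of 6. Within 10 kb there were 17 of 36 (47.2%), against 23.0% over the autosomes, and 0 of these 17 were in the Rspo2 window. These shares follow from the density that the windows were chosen with.

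Over the windows together, the shares of strong regions were close to those among replicated regions elsewhere, while median strength differed by window. In the best 10% of their list were 5 of 36 regions (13.9%) in replicate 1, against 14.4% of autosomal regions, and 10 of 36 (27.8%) in replicate 2, against 23.1%. All 5 of the replicate 1 regions were also in the best 10% of replicate 2. They were 3 in the Wnt5a window, 1 in the Wnt11 window and 1 in the Rspo2 window. The autosomal share in the best 10% of both lists was not computed. Median region percentiles were 57.4 and 68.5 (replicates 1 and 2) for Wnt5a, 67.4 and 66.2 for Wnt11 and 73.0 and 91.6 for Rspo2, against 62.0 and 74.7 over the autosomes. Regions ranked higher in replicate 2 than in replicate 1 in 22 of 36 cases (61.1%), where the autosomal share was 65.5%. A gap of over 50 percentile points in favour of replicate 2 was seen in 6 of the 36, and in 8.55% of autosomal regions. Of these 6, 1 was in the Wnt5a window, 3 in the Wnt11 window and 2 in the Rspo2 window. The opposite gap was seen in 0 of the 36, and in 2.11% of autosomal regions.

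Rank agreement between the scores of the 2 libraries was described per window, over few regions each. Across the 36 regions Spearman's rho between the scores was 0.349, and 0.559 across autosomal regions. It was 0.624 across the 16 Wnt5a regions, -0.0242 across the 14 Wnt11 regions and 0.371 across the 6 Rspo2 regions. These values describe regions that share the same 2 libraries and are not independent, so no test is attached to them. With so few regions per window the values are imprecise, and a difference between windows was not tested. Midpoints of the best peaks differed by a median of 58.8 bp (2 to 295.5 bp), against 60.5 bp over the autosomes. The replicate 1 peaks were the wider in 31 of 36 regions (86.1%), where the autosomal share was 91.8%.

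**Figure D4:**
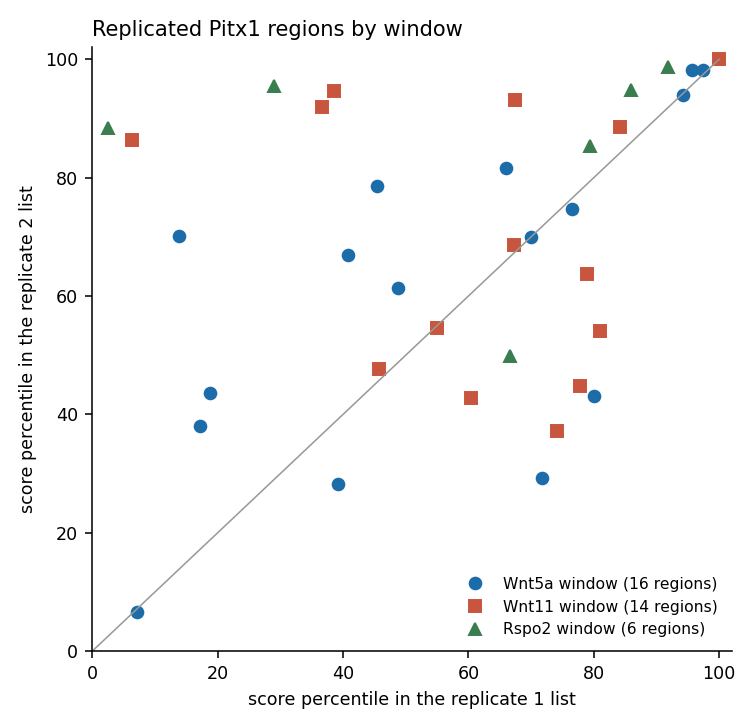
Score percentile of each replicated Pitx1 region in the replicate 1 list (x axis) and the replicate 2 list (y axis), by window, with the line of equal percentiles in grey. The 6 regions with the largest gaps lie at the upper left, and the 5 regions in the best 10% of both lists lie at the upper right.

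Peaks seen in 1 library made up 22 of the 58 replicate 1 peaks and 43 of the 79 replicate 2 peaks. In the Wnt5a window 66.7% of replicate 1 peaks recurred (16 of 24, 95% exact binomial interval 44.7 to 84.4%), and in the Wnt11 window 73.7% (14 of 19, 48.8 to 90.9%). The autosomal share was 69.9%. In the Rspo2 window 40.0% recurred (6 of 15, 16.3 to 67.7%). Autosomal peaks of the same score deciles as those 15 recurred in 65.2% of cases. Of replicate 2 peaks, 37.2% recurred for Wnt5a (16 of 43, 23.0 to 53.3%), 60.9% for Wnt11 (14 of 23, 38.5 to 80.3%) and 46.2% for Rspo2 (6 of 13, 19.2 to 74.9%), against 42.6% over the autosomes. Matched by score decile, the autosomal shares were 37.3%, 48.0% and 49.2%.

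Most of the peaks seen in 1 library were weak, as such peaks were on the autosomes as a whole. Below the median score of their list were 17 of 22 (77.3%) in replicate 1, against an autosomal share of 78.3%, and 30 of 43 (69.8%) in replicate 2, against 68.3%. In the best 10% of their list were 0 in either replicate, where the autosomal shares were 0.251% and 0.874%. The strongest one of replicate 1 in the Wnt5a window was at 29169118 to 29170746 (score 193.5, with the nearest replicate 2 peak 14.0 kb away). In the Wnt11 window it was at 106116535 to 106117390 (score 156.4, 7.99 kb away). In the Rspo2 window it was at 42378301 to 42379075 (score 198.7, 27.1 kb away). The strongest ones of replicate 2 were at 28978150 to 28978794 (score 141.2, 37.9 kb from a replicate 1 peak), 106397775 to 106398459 (score 141.3, 62.5 kb) and 42622791 to 42623262 (score 158.3, 155 kb). The last of these lies inside the 540 kb stretch without a replicated region below Rspo2. The stretch also held further weak peaks of each library, so it was not empty in either.

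A further deposited list gives 10625 single-base positions with no score. Of the 36 regions, 35 held exactly 1 such position, at a median of 80.5 bp from the region's midpoint (2.5 to 267.5 bp), and 99.7% of autosomal regions held at least 1. The exception was the strongest region, above Wnt11 from 106104581. All 16 regions of the Wnt5a window and all 6 of the Rspo2 window held a position, and no position in the windows lay outside a replicated region. The labels say nothing of how this list was made.

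At the borders of the windows, the nearest replicated regions outside lay 106 kb below and 33.4 kb above the Wnt5a window, 190 kb below and 211 kb above the Wnt11 window, and 81.9 kb below the Rspo2 window. The one just above the Wnt5a window, from 29933046 to 29933676, scored 66.2 and 84.7, and so was weaker than the last region inside. The one just below it, from 28693116 to 28693967, scored 130.0 and 432.7 and was stronger than the first region inside. Counts of replicated regions were the same when any overlap with a window was enough.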

How the data were processed

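Pitx1 ChIP peaks were taken as deposited by the authors, 1 list per ChIP library. Each peak has a start, an end and a score, and the deposited score is the peak caller's own value, on a scale that the lists do not state. Per the submitters' processing notes, the build was mm9 and the named tools, given without roles, were MACS 1.4.2, Bowtie 0.12.8, bedtools 2.16.2 and CASAVA (1.7, 1.8.2). How the input entered the calls is not given in those notes. Fixation was in 1% formaldehyde for 30 minutes per the labels' protocols, chromatin was sheared to 200 to 600 bp, and material from 3 ChIPs was used.

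The windows, lists and rules were chosen with earlier results of these data known. Positions are counted from 1. Scores were used within their list as ranks and percentiles, and scores printed side by side are not on a common scale. Where a region holds several peaks, the best counts. The text names, per window, the 5 regions with the lowest summed rank, the region nearest the gene, the first and last regions, runs of 3 or more regions under 10 kb apart and the strongest peak seen in 1 library. Peaks within 50 kb of a gene, the close pairs, the weakest Rspo2 region and the neighbours of the window borders were added after their values were seen. Planned comparisons with other pathway genes and with sequence under the peaks were not run, since no mm9 annotation or genome was used. Counting was tested on simulated data in which planted peaks stood far apart, so the handling of close neighbours was not tested. Scripts ran in Python 3.11.15 with pandas 2.3.3, numpy 2.4.6, matplotlib 3.10.9 and scipy 1.17.1.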

Additional observations from a re-analysis of the deposited data

How the results depend on the processing

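No paired analysis was possible because, of the 2 groups numbered alike, input has no peak list here. With only the best 50% of scores kept per list, replicated regions numbered 6 (Wnt5a), 7 (Wnt11) and 3 (Rspo2), and in the best 25% they numbered 3, 2 and 3, where fewer peaks enter. In the central 50% of each window, a shorter stretch, they numbered 10, 9 and 2. With 1 replicate left out no region can be replicated, so counts and densities are then of all peaks in the other library. Without replicate 1 these peaks numbered 43 (Wnt5a), 23 (Wnt11) and 13 (Rspo2), and without replicate 2 they numbered 24, 19 and 15. Density relative to the autosomes stayed above 1 for Wnt5a (2.41 to 4.42) and Wnt11 (2.21 to 5.47) under every alternative run. The lowest Wnt11 value, 2.21 in the best 25%, fell below its counting interval, and the cause was not tested. For Rspo2 the ratio went below 1 without replicate 1 (0.998, against 1.96 without replicate 2) and in the central 50% of the window (0.748), and was otherwise between 1.05 and 2.04, so its direction depended on the setting. Reciprocal overlap of 50%, midpoints within 250 bp, equal numbers of best peaks, membership by any overlap and merging regions under 1 kb apart left every count within 1.5 times. Shares and median percentiles stayed within their counting intervals or quartiles. Since read depth is unknown, an absent peak in 1 library may be below its threshold.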
